A study of Mus musculus with 6 samples.

Results

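The tyrosine kinases, adaptor and phospholipase that carry the first steps of pre-B cell receptor signalling were followed in mouse leukaemia cells after activation of Cre in cells with a floxed Bcor gene. The set was chosen by name, with earlier results of these data known. It held the SRC-family kinases Blk, Fyn, Lyn, Lck and Fgr, the kinases Syk and Btk, the adaptor Blnk and the phospholipase Plcg2. Of these 9 genes, 7 had a probe set annotated with that gene alone, out of 19938 genes with such a probe set on the array. Lyn and Lck had no probe set listed under their names and were not analysed here, so 3 of the SRC-family members were measured.

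The cells were pre-B cells of C57Bl/6 origin transformed by BCR-ABL1, a model of Ph+ acute lymphoblastic leukaemia, and all carried the genotype Bcor fl/Y. The cells called Cre-ERT2 here were transduced with PMIP-CRE-ERT2, which encodes a Cre recombinase activated by tamoxifen. Their controls, called ERT2, were transduced with PMIP-ERT2, without Cre. Both groups were treated with 4OH-Tamoxifen at 0.5 micromolar for 2 days, and RNA came from puromycin-resistant cells. There were 3 arrays per group. The labels do not say whether these stand for separate cultures, animals or cell lines. A p-value here therefore weighs a difference against the spread among 6 arrays only, and that spread may be technical.

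In a pre-B cell, SRC-family kinases phosphorylate the tyrosine motifs in the signalling chains of the pre-B cell receptor. SYK docks on these motifs and phosphorylates the adaptor BLNK, which gathers BTK and PLCG2 at the membrane. PLCG2 then cleaves a membrane lipid into the messengers that release calcium and activate protein kinase C. In BCR-ABL1 leukaemia of the B lineage, LYN and FGR are known as kinases activated downstream of the fusion kinase. The comparison of Cre-ERT2 with ERT2 arrays follows the expression of this signalling module, within the question of Bcor function that the series title names. The groups differ in whether the vector encodes Cre, and all cells carried the floxed Bcor gene. There was no Cre-ERT2 group without a floxed Bcor gene. Effects of Cre itself were therefore not separated from those of Bcor loss, and the cause of the differences below was not tested.

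Promoter entries from RefSeq (GRCm38.p6) matched 7 of the 9 genes: Fyn, Lck, Fgr, Syk, Btk, Blnk and Plcg2. Each entry was searched, over the 250 bases before the start and on both strands, for TTCNNNGAA (the core shared by BCL6 and STAT sites), GGAA (the core bound by ETS factors) and CANNTG (the E-box). The stretches outside the annotated gene are shown for the SRC-family kinase that fell and has an entry (Fyn), for its relative Fgr and for Blnk, 5′ to 3′, with GGAA or its complement TTCC in capitals.
Fyn, chr10:39369549-39369742, plus strand: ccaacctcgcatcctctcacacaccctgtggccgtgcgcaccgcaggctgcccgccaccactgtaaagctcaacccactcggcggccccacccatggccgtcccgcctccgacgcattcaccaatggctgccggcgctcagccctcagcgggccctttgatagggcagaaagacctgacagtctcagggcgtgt
Fgr, chr4:132973845-132974094, plus strand: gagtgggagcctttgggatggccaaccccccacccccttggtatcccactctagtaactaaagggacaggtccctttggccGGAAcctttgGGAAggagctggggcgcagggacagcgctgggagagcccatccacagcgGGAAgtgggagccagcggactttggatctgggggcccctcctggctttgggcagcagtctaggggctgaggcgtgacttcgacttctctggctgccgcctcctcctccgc
Blnk, chr19:40994222-40994471, minus strand: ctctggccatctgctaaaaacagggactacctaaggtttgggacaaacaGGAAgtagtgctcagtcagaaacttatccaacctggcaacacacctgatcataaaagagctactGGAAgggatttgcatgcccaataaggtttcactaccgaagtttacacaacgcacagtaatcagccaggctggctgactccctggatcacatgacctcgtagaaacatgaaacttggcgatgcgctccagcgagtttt
The Fyn window held 0 matches to any of the 3 motifs, the Fgr window held 3 GGAA matches, and the Blnk window held 2 GGAA and 3 E-box matches. TTCNNNGAA was in 0 of the members' windows and in 7.02% of all 32851 promoter windows of that length. The members had so few windows that 0 says little beside that share. The windows of Syk and Btk, and window 2 of Lck, lay wholly inside the annotated gene. Blk and Lyn had no entry. GGAA was in 93.4% of all windows and CANNTG in 66.2%. A match in such a window is a description of its letters only.

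Expression is given as the deposited log2 value of a probe set, and array medians lay between 8.61 and 8.68. Bcor was lower in each Cre-ERT2 array, at 9.16 ± 0.0716 in Cre-ERT2 and 10.12 ± 0.0517 in ERT2 arrays (log2 level, SD, n = 3 arrays each). The labels name the floxed gene and the vector but give no direction for Bcor RNA. Whether the probe set lies in the deleted part is not given in the sources used here. Differences are Cre-ERT2 minus ERT2 on the log2 scale from a limma fit over all 19938 genes, with a moderated standard error (SE) and a Benjamini-Hochberg adjusted p, and a gene is called at an adjusted p under 0.05.

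Of the 7 measured genes, 2 fell, 0 rose and 5 did not pass. Blk and Fyn, both SRC-family kinases, were the ones that fell, while Syk, Btk, Blnk, Plcg2 and the SRC-family kinase Fgr did not pass. Across all genes limma called 7.03%, with 2.98% lower (594 genes) and 4.05% higher (808 genes). After cyclic loess that split was 455 lower and 962 higher. The median log2 difference of the 7 genes was -0.04, the same to 2 decimals as the -0.04 over all genes. At an unadjusted p under 0.05 the count was also 2, both lower, against 23% of all genes (15% lower). The 2 groups of arrays did not overlap for 3 of the 7 genes (Blk, Fyn and Btk), and they did not overlap for 29.9% of all genes.

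**Figure D1:**
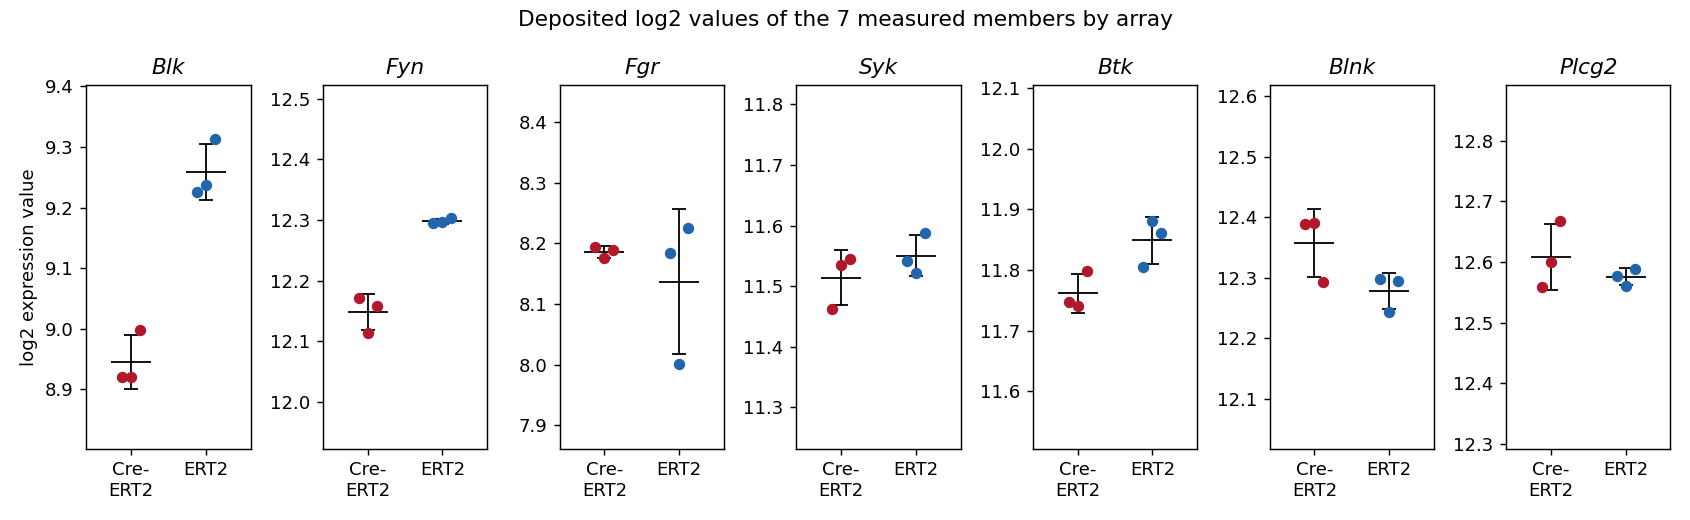
Deposited log2 expression values of the 7 measured genes, with 1 point per array, Cre-ERT2 in red and ERT2 in blue. Horizontal bars are group means and whiskers the SD over 3 arrays, and every panel spans the same log2 range; the Cre-ERT2 points of Blk, Fyn and Btk all lie below the ERT2 points.

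Blk encodes a SRC-family kinase that is largely restricted to the B lineage. Its log2 level was 8.92, 8.92 and 8.997 in the Cre-ERT2 arrays, against 9.23, 9.24 and 9.31 in the ERT2 arrays. The highest Cre-ERT2 array lay below the lowest ERT2 array, and the gap between them was wider than the spread within either group. The means were 8.95 ± 0.0445 in Cre-ERT2 and 9.26 ± 0.0468 in ERT2 arrays (SD, n = 3 each). The difference was -0.31 (SE 0.0430, limma adjusted p = 0.00324), which puts Blk in Cre-ERT2 arrays at 80.5% of its mean in ERT2 arrays. The 95% interval of the log2 difference ran from -0.41 to -0.21. An exact two-sided permutation test over the 6 arrays gave p = 0.1, the smallest it can give with 3 arrays per group. In bulk RNA, fewer cells that express a gene and less RNA per cell cannot be told apart. By mean level Blk stood at percentile 53.9 of all genes, below the stromal marker Col1a1 at 60.5. How much of the Blk signal is background was not tested.

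Fyn encodes a broadly expressed SRC-family kinase known in lymphocytes for its action beside antigen receptors. Its log2 level was 12.17, 12.11 and 12.16 in the Cre-ERT2 arrays, against 12.29, 12.30 and 12.30 in the ERT2 arrays. The groups were apart, and the ERT2 arrays were closer to each other (12.30 ± 0.00407, SD, n = 3) than the Cre-ERT2 arrays (12.15 ± 0.0296). Fyn fell by 0.15 on the log2 scale (SE 0.0366, limma adjusted p = 0.0457), to 90.1% of its mean in ERT2 arrays. This call ended with any 1 of the 6 arrays left out (adjusted p from 0.0642 to 0.183). It also ended after quantile normalization (0.0816), median centring (0.108) and cyclic loess (0.0578). The Blk call held in each of these 9 settings, with an adjusted p of up to 0.0218.

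Fgr, the SRC-family kinase best known in myeloid cells, was at 8.1939, 8.1756 and 8.1888 in the Cre-ERT2 arrays, against 8.185, 8.0004 and 8.2254 in the ERT2 arrays. The Cre-ERT2 arrays all lay within the ERT2 range, and ERT2 replicate 2 was the low array. The log2 difference was 0.05 (SE 0.0588, limma adjusted p = 0.648), with a 95% interval from -0.08 to 0.18. Without ERT2 replicate 2 the difference was -0.02 (adjusted p = 0.818), so its sign turned with 1 array. By mean level Fgr stood at percentile 34.5 of all genes, below the T-cell gene Cd3e at 43.4.

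**Figure D2:**
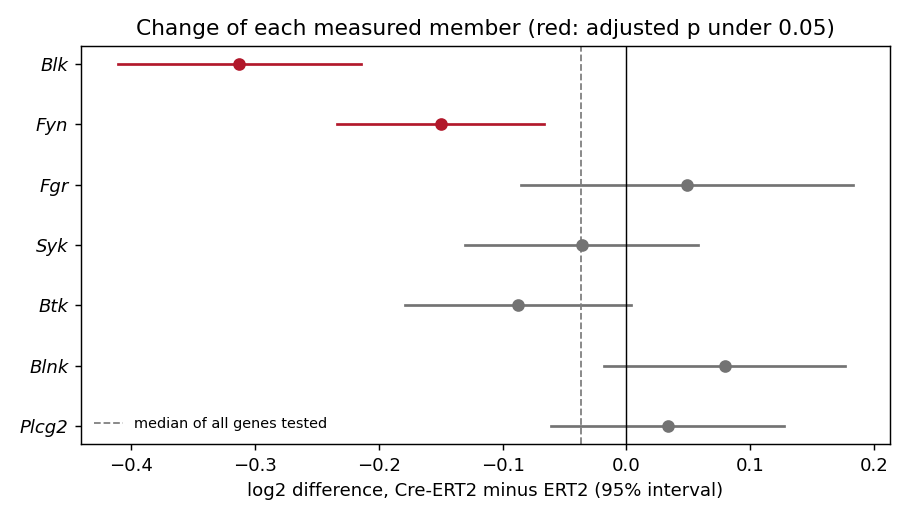
Log2 difference, Cre-ERT2 minus ERT2, for each measured gene, with its 95% interval from limma as a horizontal line. Genes called at an adjusted p under 0.05 are red (Blk at -0.31 and Fyn at -0.15), the others grey, and the dashed line is the median of all 19938 genes at -0.04.

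Syk, the kinase that reads the phosphorylated receptor chains, was at 11.46, 11.54 and 11.55 in the Cre-ERT2 arrays and 11.54, 11.52 and 11.59 in the ERT2 arrays. The groups overlapped, and the log2 difference of -0.04 (SE 0.0413, limma adjusted p = 0.633) equalled the median of all genes to 2 decimals. Its 95% interval ran from -0.13 to 0.06. Btk, the TEC-family kinase that activates PLCG2 and whose gene lies on the X chromosome, as Bcor does, was at 11.75, 11.74 and 11.80 in the Cre-ERT2 arrays and 11.81, 11.88 and 11.86 in the ERT2 arrays. The groups were just apart, with a log2 difference of -0.09 (SE 0.0399, limma adjusted p = 0.234) and a 95% interval from -0.18 to 0.0036. It did not pass over all genes, nor under any alternative that was run (adjusted p from 0.131 to 0.483).

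Blnk, the scaffold that SYK phosphorylates, was at 12.39, 12.39 and 12.29 in the Cre-ERT2 arrays, against 12.30, 12.24 and 12.29 in the ERT2 arrays. Cre-ERT2 replicate 3 lay within the ERT2 range, while Cre-ERT2 replicates 1 and 2 lay above it. The log2 difference was 0.08 (SE 0.0427, limma adjusted p = 0.307), with a 95% interval from -0.02 to 0.18. Plcg2, the phospholipase at the end of the module, was at 12.56, 12.60 and 12.67 in the Cre-ERT2 arrays and 12.58, 12.56 and 12.59 in the ERT2 arrays. The groups overlapped, and the log2 difference was 0.03 (SE 0.0411, limma adjusted p = 0.660), with a 95% interval from -0.06 to 0.13. For Syk, Blnk and Plcg2 the intervals reach values on both sides of 0, so the missing calls do not show that these genes were level.

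**Figure D3:**
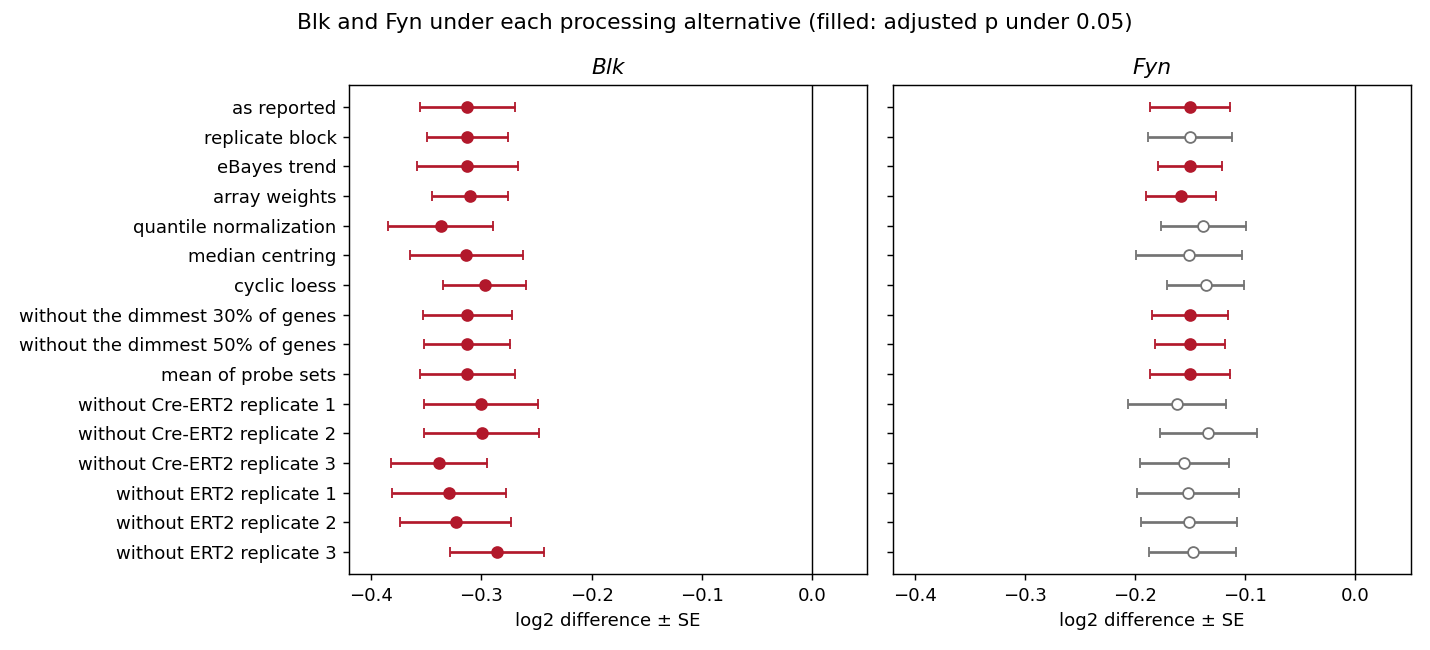
Log2 difference of Blk (left) and Fyn (right), Cre-ERT2 minus ERT2, with its moderated SE, in the fit as reported and under 15 other settings. Filled red points have an adjusted p under 0.05: all 16 for Blk, and 6 of 16 for Fyn, whose differences nevertheless stayed between -0.16 and -0.13.

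Among relatives of the members, Plcg1 and Lcp2 fell. Plcg1, the broadly expressed relative of Plcg2, was at 10.81, 10.76 and 10.81 in the Cre-ERT2 arrays, against 11.21, 11.18 and 11.23 in the ERT2 arrays, and fell by 0.42 on the log2 scale (SE 0.0381, limma adjusted p = 0.000345). Lcp2, the relative of Blnk best known in T cells and myeloid cells, was at 8.87, 8.71 and 8.73 in the Cre-ERT2 arrays, against 9.05, 9.10 and 9.11 in the ERT2 arrays, and fell by 0.32 (SE 0.0493, limma adjusted p = 0.00596). Zap70, the T-cell relative of Syk, and Tec, the relative of Btk, were at -0.10 (limma adjusted p = 0.222) and -0.02 (limma adjusted p = 0.813) and did not pass.

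The difference between relatives was tested as the log2 ratio within each array, for 5 pairs chosen after their values were seen. The log2 ratio of Plcg2 over Plcg1 was 0.45 higher in the Cre-ERT2 arrays (within-group SD 0.0429), and that of Blnk over Lcp2 was 0.40 higher (within-group SD 0.0660). Blk over Fyn differed by -0.16 (within-group SD 0.0440), so the Blk difference was the larger one in each Cre-ERT2 array. Syk over Zap70 differed by 0.06 and Btk over Tec by -0.07, both close to the spread within groups. The groups of arrays did not overlap for 4 of the pairs, all but Btk over Tec. The exact two-sided permutation p was 0.1 for those 4, the smallest the design allows, and 0.125 after adjustment over the 5 pairs. That adjustment does not cover the choice of pairs, and Plcg1 and Lcp2 were already called lower, so these p-values add no separate support.

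**Figure D4:**
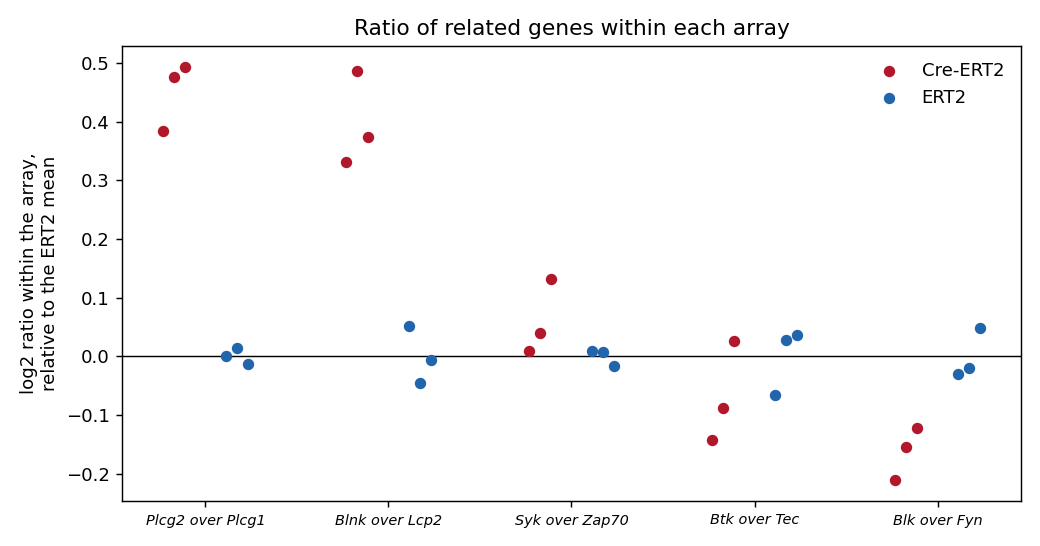
Log2 ratio of related genes within each array, set relative to the mean of the ERT2 arrays, with 1 point per array, Cre-ERT2 in red and ERT2 in blue. The Cre-ERT2 points of Plcg2 over Plcg1 lie between 0.38 and 0.49 and those of Blnk over Lcp2 between 0.33 and 0.49, while the ERT2 points of both pairs lie between -0.05 and 0.05.

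Among other cytoplasmic tyrosine kinases, 16 of 20 listed genes were measured, of which 1 rose, 0 fell and 15 did not pass, with a median log2 difference of -0.02. Jak2, which transmits signals of cytokine receptors, rose by 0.27 (SE 0.0458, limma adjusted p = 0.00980). Src and Yes1, further SRC-family kinases named after their values were seen, were at 0.03 (limma adjusted p = 0.611) and -0.04 (limma adjusted p = 0.532). At an unadjusted p under 0.05 the list held 3 genes of 16, beside the 23% over all genes.

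Of 16 regulators of SRC-family kinases, all measured, 4 rose, 1 fell and 11 did not pass, with a median of 0.03. Over all genes limma called 7.03%. At an unadjusted p under 0.05 the list held 8 genes of 16, beside 23% over all genes. No list was tested as a set. Ptpn22, a phosphatase that acts with CSK to turn SRC-family kinases off, was at 8.61, 8.58 and 8.51 in the Cre-ERT2 arrays, against 9.49, 9.45 and 9.47 in the ERT2 arrays, a difference of -0.90 (limma adjusted p = 1.38e-05). Ptprj, the receptor phosphatase CD148, which can remove the inhibitory phosphate of SRC-family kinases in B cells and myeloid cells, was at 12.29, 12.40 and 12.43 in the Cre-ERT2 arrays, against 11.81, 11.79 and 11.82 in the ERT2 arrays, and rose by 0.57 (limma adjusted p = 0.000184). Sla2, an adaptor that dampens antigen receptor signalling through CBL, rose by 0.47 (limma adjusted p = 0.000262). The other called genes, named after their values were seen, were Lax1 (0.35) and Pag1 (0.31), membrane adaptors phosphorylated by SRC-family kinases, of which PAG1 recruits CSK. Csk itself was at -0.02 (limma adjusted p = 0.918) and the phosphatase gene Ptprc, which encodes CD45, at -0.05 (limma adjusted p = 0.445), both likewise named. The 5 calls of this list all held with any single array left out.

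The receptor above these kinases did not pass: of 7 chains of the pre-B cell receptor and B cell receptor, limma called 0, and 1 had an unadjusted p under 0.05 (23% of all genes did). With array weights it called 1, Cd79b, a signalling chain, at 0.11 (adjusted p = 0.0470). In the fit as reported Cd79b was at 0.09 (SE 0.0405, limma adjusted p = 0.212). Of 11 measured coreceptors and inhibitory receptors 1 rose, 1 fell and 9 did not pass, with a median log2 difference of 0.06. Over all genes limma called 7.03%. At an unadjusted p under 0.05 this list held 6 genes, beside 23% over all genes. Of those, Cd22, Cd72, Cd81, Fcgr2b and Pecam1 were higher and Cr2 was lower. Cd22, whose tail recruits the phosphatase PTPN6 after phosphorylation by LYN, was at 11.51, 11.52 and 11.52 in the Cre-ERT2 arrays, against 11.21, 11.20 and 11.32 in the ERT2 arrays, and rose by 0.27 (limma adjusted p = 0.00707). Cr2, a complement receptor, fell by 0.19 (limma adjusted p = 0.0201), a call that was lost on leaving out any of the arrays except Cre-ERT2 replicate 3 (adjusted p up to 0.0846). By mean level Cr2 stood at percentile 23.0 of all genes, and how much of its signal is background was not tested. Without the dimmest 30% of genes, which removed Cr2, the list held 2 called genes (2 higher, 0 lower).

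**Figure D5:**
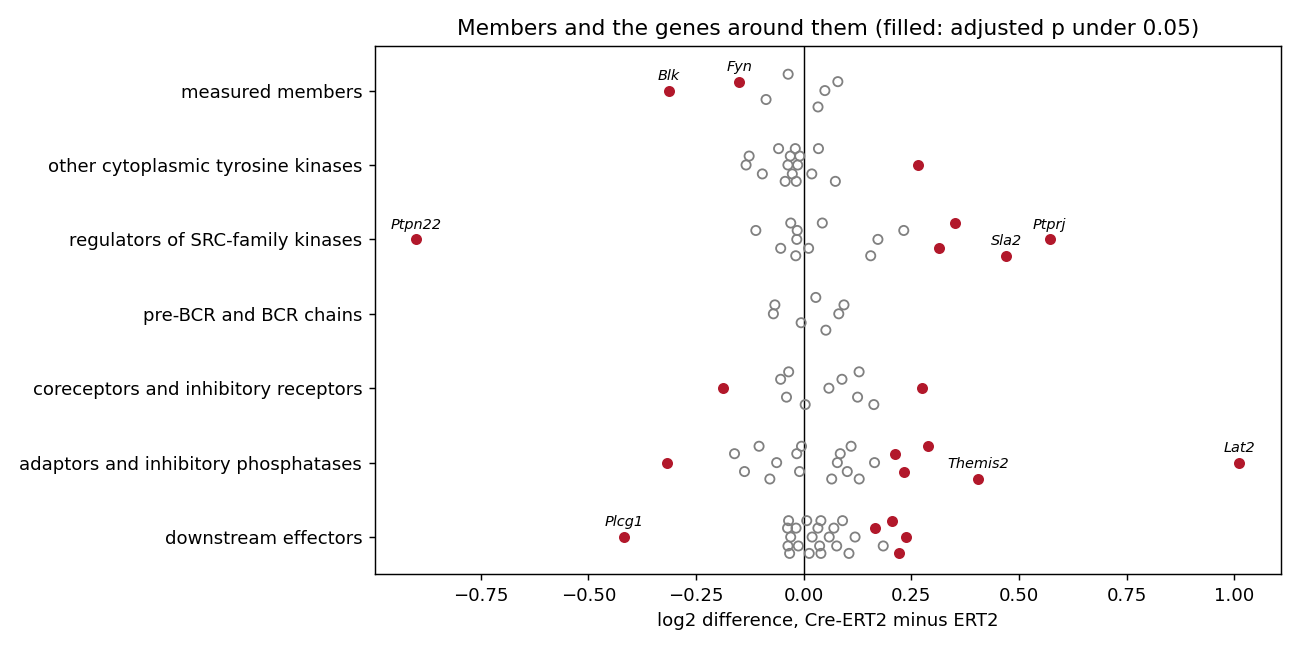
Log2 difference, Cre-ERT2 minus ERT2, for each measured gene of the set and of 6 lists of genes around it, with 1 point per gene and vertical offsets for legibility only. Filled points passed an adjusted p of 0.05, and the largest are named: Lat2 at 1.01 and Ptpn22 at -0.90 lie farthest from 0, while Blk and Fyn are the filled points of the set itself.

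Around Blnk, 21 of 22 listed adaptors and inhibitory phosphatases were measured, of which 5 rose, 1 fell and 15 did not pass. The median log2 difference was 0.08. At an unadjusted p under 0.05 the list held 11 genes of 21, beside 23% over all genes. Lat2, a membrane adaptor that is a substrate of SYK and LYN in B cells and mast cells, was at 10.24, 10.35 and 10.54 in the Cre-ERT2 arrays, against 9.33, 9.55 and 9.22 in the ERT2 arrays. It rose by 1.01 on the log2 scale (SE 0.0951, limma adjusted p = 0.000392), a 2.02-fold difference and the largest in any of the 6 lists and the set. Themis2, an adaptor for GRB2 and PLCG2 in B cells, rose by 0.41 (limma adjusted p = 0.00151), and Lcp2 was the gene that fell. The other called genes, named after their values were seen, were Dapp1 (0.29), Pik3ap1 (0.23), which links B cell receptor signals to PI3 kinase, and Gab1 (0.21). The Gab1 call ended without Cre-ERT2 replicate 1, ERT2 replicate 1 or ERT2 replicate 2 (adjusted p up to 0.0903).

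Below Btk and Plcg2, 26 of 30 downstream effectors were measured, of which 4 rose, 1 fell and 21 did not pass. The median was 0.04. At an unadjusted p under 0.05 the list held 8 genes of 26, beside 23% over all genes. Plcg1 was the gene that fell. Malt1, a protease of the complex that activates NF-kB, rose by 0.24 (limma adjusted p = 0.00553), and Vav3, a guanine nucleotide exchange factor, by 0.22 (limma adjusted p = 0.00863). Vav2 (0.21) and the calcium channel gene Itpr3 (0.16) were also called and were named after their values were seen. Leaving out ERT2 replicate 1 ended the Vav2 call (adjusted p = 0.0578), and leaving out any of the 6 arrays ended the Itpr3 call, whose adjusted p then reached 0.106. Median centring also ended the Itpr3 call (adjusted p = 0.0744). Without ERT2 replicate 1 the list held 3 called genes in place of 5.

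The genes whose 6 array values, after subtraction of each gene's mean, lay closest to those of Blk were Ypel3 (distance 0.0290 on the log2 scale), Nupr1 (0.0328) and Syn1 (0.0360), all lower in Cre-ERT2 by 0.30 to 0.33. Ypel3, for example, was at 10.81, 10.82 and 10.88 in the Cre-ERT2 arrays, against 11.09, 11.11 and 11.20 in the ERT2 arrays. Closest to Fyn were Nln (0.0213), A830031A19Rik (0.0264) and Rbl1 (0.0301), at -0.14 (limma adjusted p = 0.0616), -0.14 (0.0588) and -0.15 (0.0404). The Rbl1 call was lost on leaving out any of the 6 arrays, where its adjusted p reached 0.163, and also after quantile normalization (0.0740) and median centring (0.101). These distances rest on 6 arrays in 2 groups and include the difference between the groups. The genes tested next to Blk on chromosome 14, Gata4 and Fam167a, were at -0.09 (limma adjusted p = 0.342) and -0.04 (limma adjusted p = 0.562). Those next to Fyn on chromosome 10, Ccn6 and Traf3ip2, were at -0.04 (limma adjusted p = 0.562) and 0.03 (limma adjusted p = 0.698).

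Of the markers of the labelled pre-B cell type the brightest probe sets were those of Igll1 and Cd24a. Igll1, a surrogate light chain gene, was at 14.25 ± 0.0153 in Cre-ERT2 and 14.20 ± 0.00552 in ERT2 arrays (log2 level, SD, n = 3 each). Cd24a was at 13.86 ± 0.0763 in Cre-ERT2 and 13.67 ± 0.0240 in ERT2 arrays. Of 12 B-lineage precursor markers 2 rose (Dntt by 0.86, Cd24a by 0.19) and 3 fell (Rag2 by 0.71, Il7r by 0.60 and Rag1 by 0.38), and their summed linear level was 92050 to 94218 in Cre-ERT2 and 93358 to 93987 in ERT2 arrays. For Cd24a, leaving out any of the arrays except Cre-ERT2 replicate 3 ended the call, and so did median centring (adjusted p up to 0.171). Of 15 T and NK cell markers 2 rose (Cd28 by 0.39, Cd2 by 0.33) and 2 fell (Klrd1 by 0.49, and Ncr1 by 0.23, a call lost without Cre-ERT2 replicate 1 at an adjusted p of 0.0529), and the sum was 7688 to 7844 in Cre-ERT2 and 6956 to 7416 in ERT2 arrays. Cd2, also known on mouse B-lineage cells, was with Lat (0.13, limma adjusted p = 0.105) the brightest of that list, and the defining T-cell chain Cd3e was at 8.51 in Cre-ERT2 and 8.54 in ERT2 arrays. Without Cd2 the sum was 4369 to 4399 in Cre-ERT2 and 4331 to 4608 in ERT2 arrays, so the groups overlapped. The difference was negative for 12 of the 15 markers, with a median of -0.07 on the log2 scale, beside -0.04 over all genes. In the fit as reported, 5 of 12 B-lineage precursor markers and 4 of 15 T and NK cell markers were called, beside 7.03% of all genes. At an unadjusted p under 0.05 these lists held 7 of 12 and 8 of 15 genes, beside 23% over all genes. RMA-type values have no 0, so no marker can be called absent.

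Of 15 myeloid markers, which bear on Fgr, Lyz2 rose by 0.45 and Mrc1 fell by 0.54. These were the 2 called genes of the list, beside 7.03% called over all genes. At an unadjusted p under 0.05 the list held 6 genes of 15, beside 23% over all genes. The summed level of the list was 4820 to 4915 in Cre-ERT2 and 4669 to 4842 in ERT2 arrays, with Cd68 at 0.05 (limma adjusted p = 0.409). Without Lyz2, the brightest, it was 3648 to 3695 in Cre-ERT2 and 3852 to 3905 in ERT2 arrays, and 10 of the 15 differences were negative. Of 10 stromal markers limma called 0, with 4 at an unadjusted p under 0.05 (23% of all genes were) and Col1a1 and Col1a2 the brightest, and their sum was 3233 to 3297 in Cre-ERT2 and 3363 to 3480 in ERT2 arrays. Of 8 erythroid and megakaryocyte markers it called 0, with 2 at an unadjusted p under 0.05 and Itga2b and Slc4a1 the brightest, and a sum of 2451 to 2530 in Cre-ERT2 and 2523 to 2548 in ERT2 arrays. The difference was negative for 9 of the 10 stromal markers and for 6 of the 8 erythroid and megakaryocyte markers. With array weights, 2 stromal markers and 1 erythroid or megakaryocyte marker were called, all lower. The same setting called 7 T and NK cell markers (3 higher, 4 lower) and 4 myeloid markers (1 higher, 3 lower). It called 7 B-lineage precursor markers (3 higher, 4 lower). The part of these marker lists in the results was not tested.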

How the data were processed

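Total RNA from 6 samples was hybridised to an Affymetrix array. The authors deposited log2 values per probe set, and the submitters' processing notes name RMA and Partek 6.5. The background setting and genome build are not given in the sources used here. No detection limit could be set, and the number of arrays limits the precision (median SE of a log2 difference 0.0477).

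Of 35556 probe sets, 21789 had 1 gene symbol, and the one of highest mean represented each gene. Differences were fitted with limma 3.58.1 in R 4.3.3 (lmFit, eBayes without trend) and adjusted over 19938 genes. The pipeline was tested on simulated data. Promoter windows and plots used pandas 2.3.3 and matplotlib 3.10.9 under Python 3.11.15.

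The members, the lists and the tests were chosen with earlier results of these data known. From each list, up to 3 called genes of largest change were named, or the 1 of smallest p. For marker lists the 2 brightest and all called genes were named, and for called members the 3 nearest profiles and the adjacent genes. Alternatives are given in the closing section.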

Additional observations from a re-analysis of the deposited data

How the results depend on the processing

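Blk stayed called in 15 alternatives (log2 difference from -0.34 to -0.29), and lost its call only to limma's treat, which tests against a log2 difference of 0.2. Fyn kept its sign, but its call ended with the replicate number as a block (-0.15, adjusted p = 0.106), after quantile normalization (-0.14), median centring (-0.15) and cyclic loess (-0.14), and with any array left out (-0.16 to -0.13). The count of called members was therefore 1 in each of these settings, and 0 by treat. The cause was not tested. The labels do not say whether same-numbered arrays of the 2 groups belong together. Correlations of their deviations from the group means were 0.05, -0.09 and -0.26. For arrays of different numbers they ran from -0.29 to 0.31. With 3 arrays per group, these values cannot settle whether the block applies. With the block, 805 genes were called in all, and 1 coreceptor or inhibitory receptor. The 5 other measured members passed in 0 of the alternatives run.

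Over all genes 1402 were called as reported, 3339 with array weights (1315 higher, 2024 lower), 2271 at an adjusted p of 0.1, 222 by treat, and 743 to 1341 with 1 array left out (804 and 743 without Cre-ERT2 replicates 1 and 2, 770 and 934 without ERT2 replicates 1 and 2). With array weights 1 receptor chain and 5 coreceptors or inhibitory receptors (4 higher, 1 lower) were called. The same weights called 7 regulators of SRC-family kinases (6 higher, 1 lower) and 9 adaptors or inhibitory phosphatases (7 higher, 2 lower). They also called 7 downstream effectors (6 higher, 1 lower). Treat called 0 other cytoplasmic tyrosine kinases, 3 regulators of SRC-family kinases, 0 coreceptors, 1 adaptor and 1 downstream effector. With 1 array left out, 1 to 2 coreceptors and 3 to 4 downstream effectors were called. Among single genes outside the set, Dapp1, Gab1, Itpr3, Cr2, Cd24a and Rbl1 lost their calls with the block, which changed no other call named. The Fgr value could not be had without the dimmest 50% of genes. The ratios of relatives, added after the data were seen, moved by less than their within-group SD in each setting.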
